A study of Mus musculus with 4 samples.

Results

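The forkhead genes encode transcription factors that share a winged-helix DNA-binding domain. The set described here is 10 of them: Foxp1, Foxp2, Foxp4, Foxo1, Foxo3, Foxn3, Foxk1, Foxj3, Foxc1 and Foxa2. Its peaks are all entries of the deposited 5-hydroxymethylcytosine (5hmC) peak lists whose gene symbol equals a member. These were 97 of 56695 readable peaks in the chondrocyte list and 2 of 1050 peaks in the chondroprogenitor list. The members were selected on the number of peaks that carried their symbols in these same lists, so the counts per gene are descriptions and no test is attached to them.

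All libraries came from ATDC5, a line of mouse chondroprogenitor cells. The chondrocyte stage is ATDC5 grown with insulin, transferrin and selenite and sampled at days 19 and 20 (2 libraries). The chondroprogenitor stage is the same line at day 0, in the basal medium (2 libraries). Both stages received serum and ascorbic acid, and DNA carrying 5hmC was captured chemically before sequencing. The authors deposited 1 list of merged samples per stage, called the day 20 and the day 0 list below, so no spread between replicates could be measured. Whether the day 19 library entered the day 20 list is not given. Peaks of 1 list are not replicates. Neither list gives a height or fold per peak, RNA values were not used here, so the stages could not be checked against marker genes, and read depth is unknown. The longer list and its wider peaks (median 591 bp at day 20, 134 bp at day 0) mean that a peak number is not an amount of 5hmC.

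5hmC is made from 5-methylcytosine by TET dioxygenases and is found over the bodies and enhancers of active genes in many tissues. FOXP proteins are mostly repressors that pair with each other, and in the mouse growth plate they bind RUNX2. FOXO proteins are held out of the nucleus when insulin or IGF activates AKT, and in mouse cartilage they support autophagy and antioxidant genes. FOXC1 and FOXA2 act in the mouse skeleton, the first with GLI2 and the second in chondrocyte hypertrophy.

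The 3 promoter stretches below show where a peak does and does not reach a Foxp1 start. They are the 250 bases before each Foxp1 start listed in RefSeq (GRCm38.p6), 5′ to 3′ on the minus strand of chromosome 6. In the middle stretch capitals mark the bases under a day 20 peak. In the other stretches, which no peak overlaps, capitals mark CpG pairs.
Foxp1, outermost listed start, chr6:99520994-99521243: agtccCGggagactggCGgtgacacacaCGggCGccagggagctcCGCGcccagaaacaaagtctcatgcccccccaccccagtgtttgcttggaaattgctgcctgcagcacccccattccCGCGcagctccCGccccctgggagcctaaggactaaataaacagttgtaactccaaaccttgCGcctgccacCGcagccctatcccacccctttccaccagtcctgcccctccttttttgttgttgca
Foxp1, internal start, chr6:99266516-99266765: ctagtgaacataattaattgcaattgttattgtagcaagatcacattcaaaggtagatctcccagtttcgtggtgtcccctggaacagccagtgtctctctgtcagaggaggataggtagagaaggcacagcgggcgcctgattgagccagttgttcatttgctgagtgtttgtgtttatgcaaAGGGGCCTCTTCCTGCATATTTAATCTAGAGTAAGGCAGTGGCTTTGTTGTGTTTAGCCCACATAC
Foxp1, innermost listed start, chr6:99028299-99028548: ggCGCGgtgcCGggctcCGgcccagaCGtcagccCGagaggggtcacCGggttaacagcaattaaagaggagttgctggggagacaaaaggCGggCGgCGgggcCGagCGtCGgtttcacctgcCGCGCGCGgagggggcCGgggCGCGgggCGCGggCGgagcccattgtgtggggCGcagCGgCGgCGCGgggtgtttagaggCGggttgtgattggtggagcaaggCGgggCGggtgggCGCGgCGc
The middle stretch held 3 CpG pairs, none of them among its 66 bases under the peak. The outermost stretch held 11 CpG pairs and the innermost 34.

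Day 20 peaks carried the symbol of 7 of the 10 members, against 43.9% of 21900 protein-coding genes in the reference table. Apart from Foxc1 and Foxa2, the members span 57.5 kb or more. Of the 4945 protein-coding genes of at least 50 kb, 22.5% had no day 20 peak in the gene body. Foxp1 had 53 of the 97 peaks, Foxn3 19, Foxo3 9, Foxk1 7, Foxp4 and Foxo1 4 each, and Foxj3 1. Foxp2, Foxc1 and Foxa2 had none. The share of Foxp1 was 54.6% (Wilson 95% interval 44.7 to 64.2%, counting error only), while Foxp1 makes up 31.4% of the summed length of the 10 genes. That sum of 1904 kb includes the 541 kb of Foxp2, which had no peak. By base pairs its peaks held 40.1 of 74.8 kb, or 53.6%. The FOXP members together had 57 peaks (58.8%) and the FOXO members 13 (13.4%).

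In the day 0 list 1 of the 10 members, Foxp1, had a peak. The same list gave a peak to 1.81% of protein-coding genes by symbol, so its absence from the other members is the usual case.

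**Figure D1:**
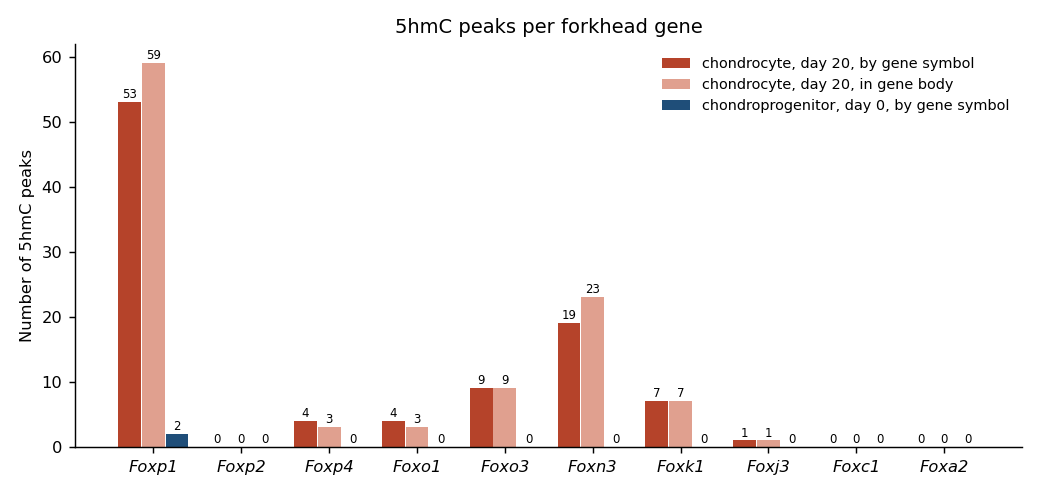
Number of 5hmC peaks (vertical axis) for each of the 10 forkhead genes, from the day 20 list by gene symbol, from the day 20 list by overlap with the gene body, and from the day 0 list by gene symbol. Foxp1 stands at 53, 59 and 2 peaks, and Foxp2, Foxc1 and Foxa2 are at 0 in all 3.

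Position gave nearly the same picture as the symbols. By overlap of at least 1 bp with the annotated gene body, the members held 105 day 20 peaks in the same number of genes, 7. A peak was held by 40.5% of all protein-coding genes, while 22.5% of those of at least 50 kb had none. Foxp1 had 59 and Foxn3 23. The 10 peaks that were inside a member but had no symbol lay in Foxp1 (6) and Foxn3 (4). All of them lay toward the gene start. In Foxn3 they were upstream of its listed start at 99450074. In Foxp1 they lay 20.2 to 75.2 kb from the gene start, and the first peak that carried the symbol lay at 83.5 kb. In the opposite direction, 2 peaks with a member's symbol lay upstream of the gene, 1.08 kb from Foxp4 and 5.01 kb from Foxo1.

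Foxp1 encodes a repressor with roles in mouse heart, lung, lymphocyte and growth plate development. It covers 597 kb on chromosome 6 (98925342 to 99522746, GRCm38, minus strand). Its 59 day 20 peaks ran from 20.2 to 588 kb from the gene start. Cut into 3 equal parts from the start, the gene held 21, 16 and 22 peaks. Peaks were therefore present in each part, with a median gap of 7.36 kb between neighbours. The widest empty stretch inside this array was 30.6 kb (99140771 to 99171321). At the other end of the range, 9 of the 58 gaps were at most 1 kb, 2 of them at most 100 bp, and the smallest was 10 bp. Merging peaks within 1 kb of each other left the members with 95 body peaks in place of 105. Peaks covered 7.54% of the gene.

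The authors' symbols tied the Foxp1 peaks to 3 transcripts, with 19 peaks on the upstream side, 23 in the middle and 11 on the downstream side. The change from one transcript to the next fell at the 2 inner listed starts, at 99266515 and 99028298. The innermost start lay in a gap, with the nearest peaks 3096 bp away on the lower-coordinate side and 3117 bp on the other. The internal start lay inside the peak from 99265580 to 99266581, which is 1002 bp wide.

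Both day 0 peaks of Foxp1 lay wholly inside a day 20 peak. The first spans 99327675 to 99327853 (179 bp) under a day 20 peak of 744 bp (99327557 to 99328300), which is 4.16 times as wide. The second spans 99359199 to 99359348 (150 bp) under a day 20 peak of 961 bp (99358978 to 99359938), which is 6.41 times as wide. They lay 195 and 163 kb from the gene start, in the upstream part of the gene. Over the whole day 0 list, 520 of 1050 peaks (49.5%) overlapped a day 20 peak, and with 2 peaks no difference from that share can be read. Another day 0 peak lay outside Foxp1, 77.5 kb past its lower-coordinate end.

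**Figure D2:**
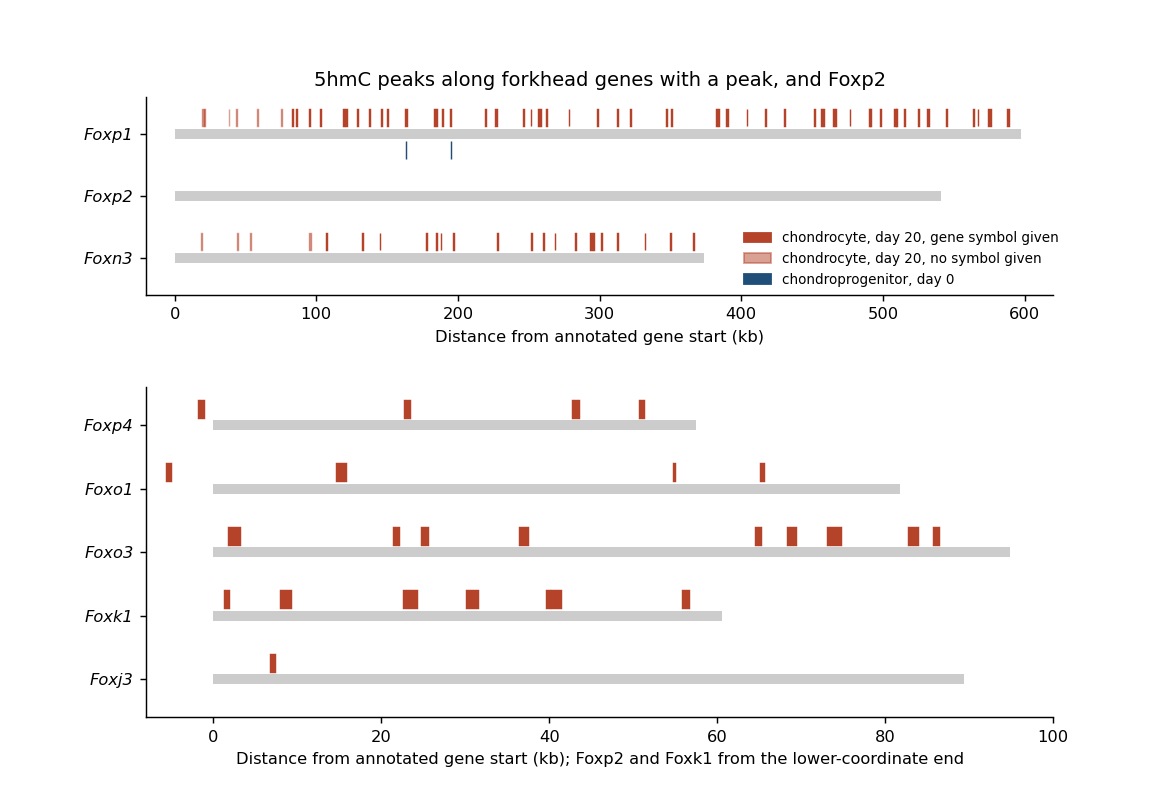
Positions of 5hmC peaks along the long genes (upper panel) and the shorter genes (lower panel), in kb from the annotated gene start, or from the lower-coordinate end for Foxp2 and Foxk1. Grey bars are gene bodies, blocks above them day 20 peaks (paler where no symbol was given) and blocks below them day 0 peaks. Peaks less than 1 kb apart can look like 1 block. Peaks run along most of Foxp1 and Foxn3 and are absent from Foxp2.

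Foxp2, best known for speech and vocal learning circuits and a partner of FOXP1, gave the opposite picture at nearly the same length. It covers 541 kb of the same chromosome (14901349 to 15441977) and held 0 day 20 peaks and 0 day 0 peaks. The nearest day 20 peaks lay 101 kb beyond its higher-coordinate end and 706 kb beyond the other. Within 500 kb on either side there were 11 day 20 peaks, or 1.1 per 100 kb, against 64 (6.4 per 100 kb) around Foxp1. An empty gene of this size was common, since 76 of the 227 protein-coding genes of at least 500 kb (33.5%) had no day 20 peak, and 61 of them had none within 100 kb either.

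Foxp1 had 9.88 day 20 peaks per 100 kb. This was the highest value among those 227 genes, whose median was 0.451 per 100 kb. By number of peaks in the gene body Foxp1 ranked 3 among all 21900 protein-coding genes. Among the 4945 genes of at least 50 kb, with a median of 2.74, its density ranked 224. The 10 genes next to it in length, 5 shorter and 5 longer, ranged from 0 to 6.84 per 100 kb. Of these, Lpp, a focal adhesion protein gene, held 41 peaks, and Slit3, a guidance ligand gene, and Kalrn held 38 each. Mast4 held 34 and Frmd4a 29. Hpse2 held 5 and Clstn2 1, and Fat3, Fgf12 and Sorcs3 held 0. Mast4 was the only one of these 10 with a day 0 peak, and it had 1.

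**Figure D3:**
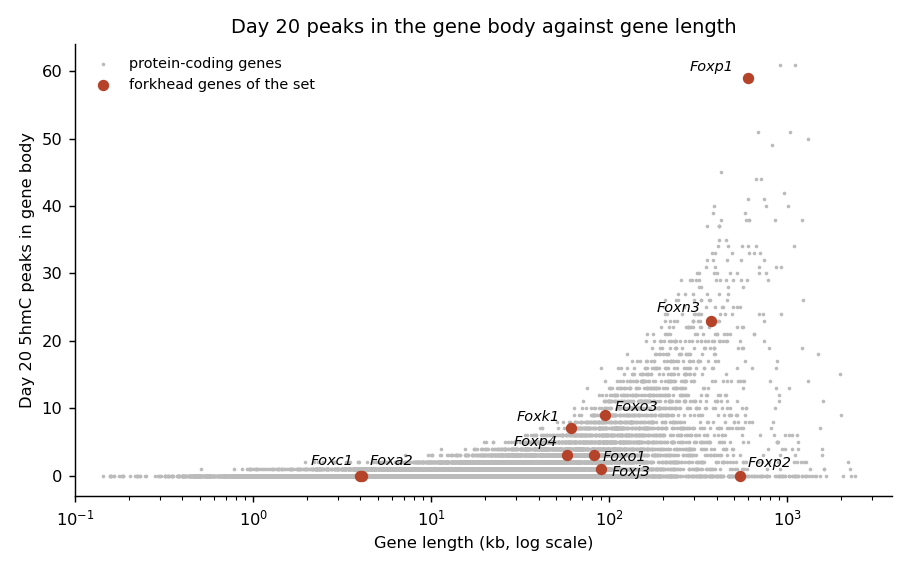
Day 20 peaks in the gene body (vertical axis) against gene length in kb (log scale) for all protein-coding genes, with the 10 forkhead genes in red. Foxp1 lies at the upper edge of the cloud with 59 peaks in 597 kb, and Foxp2 lies on the axis with 0 in 541 kb.

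Foxp4, the remaining FOXP gene of the set, covers 57.5 kb of chromosome 17 (47867133 to 47924632, minus strand). Its 3 peaks in the gene body were 607, 847 and 716 bp wide. The peak upstream of its start (47925709 to 47926451) was 743 bp wide. All 4 were wider than the median of the day 20 list. The density in the gene body was 5.22 per 100 kb, against 3.8 in the 500 kb on either side. Counted with 100 kb on either side, there were 23 day 20 peaks, most of them outside the gene. The contrast with its surroundings therefore depends on the flank chosen.

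The FOXO genes differed from each other. Foxo3 (chromosome 10, 42181845 to 42276695, minus strand) held 9 peaks in 94.9 kb, or 9.49 per 100 kb, and peaks covered 10.1% of it. Foxo1 (chromosome 3, 52268337 to 52350109, plus strand) held 3 in 81.8 kb, or 3.67 per 100 kb, and peaks covered 2.34%. Foxo3 therefore had a higher peak density than the 500 kb on either side of it (6.6 per 100 kb), and Foxo1 a lower one (6.8 per 100 kb).

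Foxo3 peaks were wider than most, and the widest gap between them was 27 kb. They measured 674, 1117, 1706, 1057, 795, 1129, 901, 736 and 1420 bp in order of rising coordinate. The median was 1057 bp, and all 9 exceeded the median of 591 bp for the whole list. The peak of 1420 bp (42273521 to 42274940) ended 1755 bp inside the gene from its start. The widest Foxo3 peak (42201907 to 42203612) was the widest of all 97 peaks. Foxo1 peaks measured 606, 1138, 257 and 515 bp, with only the second of them over 1 kb.

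Foxn3, a repressor linked to cell cycle checkpoints, covers 374 kb of chromosome 12 (99190081 to 99563667, minus strand). Its 23 body peaks gave 6.16 per 100 kb, against 2.5 in its flanks. From the gene start, 3 equal parts held 5, 7 and 11 of them. The median gap between neighbours was 11.2 kb and the widest 41 kb. The 19 peaks with its symbol had a median width of 626 bp and none reached 1 kb. Of the 4 peaks without a symbol, 1 did, with 1542 bp (99467481 to 99469022).

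Foxk1, a regulator of glucose metabolism and autophagy genes, had the highest density of the 10. It held 7 peaks in 60.5 kb of chromosome 5 (142401497 to 142462015), or 11.6 per 100 kb, against 3.2 in its flanks, and they covered 12.6% of the gene. Their widths were 694, 1287, 1675, 1393, 567, 1163 and 820 bp, with a median of 1163 bp. Only the peak of 567 bp was narrower than the median of the list. It lay 75 bp from the peak of 1163 bp, while the median gap between Foxk1 peaks was 7.05 kb. By density Foxk1 ranked 67 among the 4945 genes of at least 50 kb, Foxo3 273, Foxn3 1007, Foxp4 1353, Foxo1 2006 and Foxj3 3431.

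Foxj3, which acts in mouse spermatogenesis, held 1 peak of 599 bp in 89.5 kb of chromosome 4 (119546395 to 119546993), or 1.12 per 100 kb, while its flanks had 5. Another peak of 317 bp (119538672 to 119538988) lay 673 bp upstream of its start and carried the symbol of another gene, AA415398.

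Over all 97 peaks the median width was 702 bp (quartiles 560 and 911 bp), against 591 bp (458 and 783.5 bp) in the whole day 20 list. Peaks of at least 1 kb made up 18 of 97 (18.6%), against 12.4% of the list, which is a description with no test. The 18 came from Foxp1 (8), Foxo3 (5), Foxk1 (4) and Foxo1 (1). Without Foxp1 the median was 708.5 bp. Among the 1929 symbols with 5 or more day 20 peaks, Foxk1 ranked 49 and Foxo3 81 by median width, while Foxp1 ranked 616 and Foxn3 918.

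**Figure D4:**
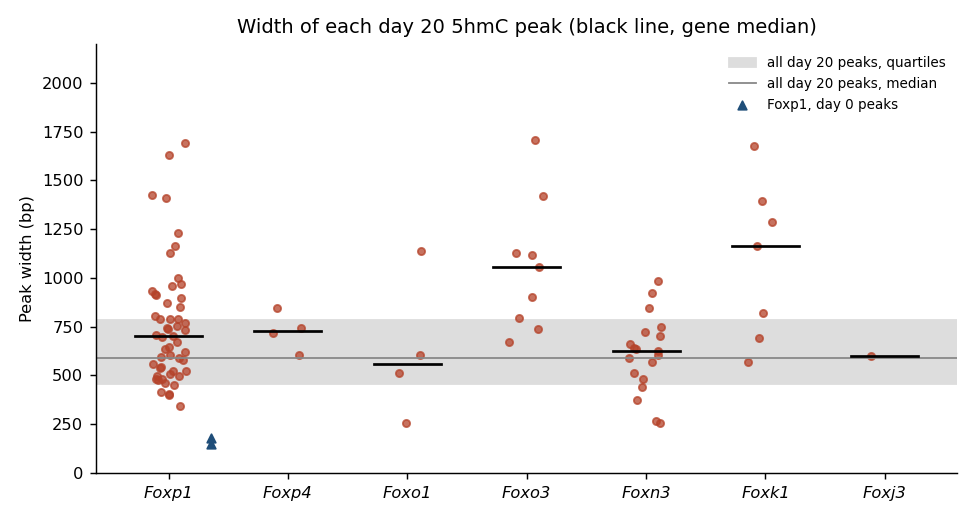
Width in bp of each day 20 peak with the symbol of a forkhead gene (red points, black line at the gene's median), with the 2 day 0 peaks of Foxp1 as blue triangles. The grey band and line give the quartiles and median of all day 20 peaks. Foxo3 and Foxk1 have medians of 1057 and 1163 bp, and the day 0 peaks lie at 179 and 150 bp.

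Foxc1 and Foxa2 are single small genes, of 3.99 kb on chromosome 13 (31806646 to 31810635) and 4.09 kb on chromosome 2 (148042877 to 148046969). No day 20 peak lay in them or within 5 kb. The nearest were 19.5 kb from Foxc1, in the neighbouring gene Gmds, and 19.9 kb from Foxa2. Within 100 kb on either side there were 12 day 20 peaks and 1 day 0 peak around Foxc1, and 8 and 0 around Foxa2. On the higher-coordinate side of Foxa2 the nearest peak was 1757 bp wide (148068008 to 148069764).

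The wider forkhead family was read from a list of 44 genes, of which 34 are not in the set. By gene body 8 of the 34 held a day 20 peak, where 40.5% of all protein-coding genes did, and none held a day 0 peak, where 1.76% did. Foxk2, Foxn1 and Foxj2 held 2 each and Foxn2, Foxn4, Foxm1, Foxf2 and Foxf1 1 each. By symbol 13 had a peak, against 43.9% of all protein-coding genes, because Foxo6, Foxd1, Foxl1, Foxr1 and Foxs1 were given 7 peaks that lay 2139 to 6061 bp outside the gene. Foxf2 was given 4, of which 3 lay 984 to 3754 bp from its start. The other, 1601 bp wide (31629557 to 31631157), lay in the gene. With 5 kb added on both sides of the gene 15 of the 34 had a peak, against 50.8% of all protein-coding genes. The peak in Foxf1 was 1139 bp wide (121086186 to 121087324 on chromosome 8).

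Most forkhead genes are short, and 27 of the 44 span less than 11 kb. Of these 2 held a day 20 peak, against 13.1% of the 8464 protein-coding genes of that size. The limit of 11 kb was set after the lengths were seen. Counted within 100 kb on either side, the 27 genes had a median of 8 day 20 peaks (range 0 to 23), against 4 (quartiles 0 and 8) for the short genes in general. Foxq1, Foxf2 and Foxc1 lie side by side on chromosome 13, and the 252 kb from the first to the last (31558170 to 31810635) held 22 day 20 peaks. That is 8.71 per 100 kb, against 2.28 over the autosomes. The 500 kb on either side of Foxc1, which overlap this stretch, had 5.9 per 100 kb, so the wider region was also above the autosomes. In this stretch 1 of the 22 lay inside a forkhead gene, and there was 1 day 0 peak. The other forkhead cluster counted, the 46.3 kb from Foxf1 to Foxl1 on chromosome 8, held 3 day 20 peaks, or 6.49 per 100 kb. It held 0 day 0 peaks. Foxd2 and Foxe3 also lie close together, on chromosome 4 (114906280 to 114926067), and went the other way. Each held 0 day 20 peaks and had 2 within 100 kb on either side. The nearest day 20 peak lay 25187 bp from Foxd2 and 8018 bp from Foxe3.

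Promoter windows of 300 bases (250 before a listed start and 50 from it) were available for 8 of the 10 members, 12 windows in all. Foxp2 and Foxk1 have no entry. A day 20 peak lay within 1 kb of a start in 2 members, Foxp1 and Foxj3, against 12.8% of 17492 genes with a listed start. It overlapped a window in Foxp1 only, against 4.2% of those genes. The 12 windows held a median of 27 CpG pairs, against 13 (quartiles 4 and 24) over 21263 windows of protein-coding genes. Among all 796 windows under a day 20 peak the median was 8 (quartiles 4 and 17).

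The window under the peak, at the internal Foxp1 start printed above, held 5 CpG pairs, with 116 of its bases under the peak. It had the fewest CpG pairs of the 12. The innermost Foxp1 window held 44, Foxj3 42, Foxo3 35, Foxp4 33, Foxc1 32 and Foxo1 31, and each of these 6 was free of peaks. The nearest peak lay 673 bp from the Foxj3 start, 1077 bp from the Foxp4 start and 1755 bp from the Foxo3 start. The Foxn3 window, with 6 CpG pairs, was also free, and its nearest peak lay 6285 bp from its listed start. That start, at 99450074, lies inside the annotated gene, and no window was available at the annotated gene start (99563667). Over all 21263 windows 796 (3.74%) were under a day 20 peak, so a window free of peaks was the usual case. With 1 covered window no relation to CpG number can be read. The forkhead core motif TGTTTAC, searched on both strands, was in 0 of the 12 windows and in 3.01% of all 21263. With 12 windows no difference from that share can be read.

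**Figure D5:**
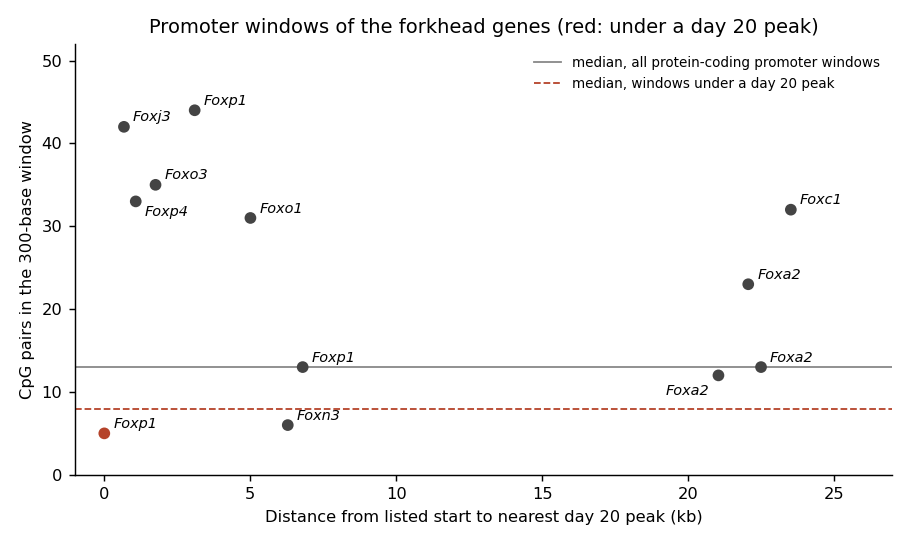
CpG pairs in each 300-base promoter window of the forkhead genes (vertical axis) against the distance in kb from the listed start to the nearest day 20 peak. The red point is the internal Foxp1 window, with 5 CpG pairs under a peak, and the lines give the medians of 13 for all windows and 8 for windows under a peak.

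Genes around the FOXO and FOXP factors were read from 4 lists with 72 different genes. The lists were written with earlier results of these data known, and some genes stand in more than 1 list. Of 27 FOXO regulators 22 held a day 20 peak in the gene body (40.5% of all protein-coding genes did), with a median of 2 peaks per gene against 0 over all genes. Their median length was 68.3 kb, against 17.1 kb over all genes. Among the 4945 protein-coding genes of at least 50 kb, 22.5% had no such peak and the median was 3 peaks. Igf1r, the IGF-1 receptor gene, held 20, the phosphoinositide 3-kinase subunit gene Pik3cb 11, and Sgk1, an AKT-related kinase gene, 9. Igf1r was the one regulator with day 0 peaks, and had 2. Without a day 20 peak in the body were Sirt1, Crebbp, Mapk8, Prmt1 and Pik3r2.

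Of 27 genes known as FOXO targets 18 held a day 20 peak, against 40.5% of all protein-coding genes. Their median was 1 peak and their median length 12.9 kb. Ppargc1a, a coactivator gene of mitochondrial metabolism, held 44 by position over an annotated 662 kb, while the authors' symbol gave it 6. It also held 1 day 0 peak by position and none by symbol. Sesn1, a stress-response gene, held 11, and Insr, the insulin receptor gene, held 4.

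Of 10 FOXP partners 7 held a day 20 peak, against 40.5% of all protein-coding genes. Their median was 3.5 peaks and their median length 79.8 kb. Among genes of at least 50 kb, 22.5% had no day 20 peak and the median was 3, so 7 of 10 was not above the long genes. None of the partners held a day 0 peak, where 1.76% of all protein-coding genes did. Runx2 held 28 and Gatad2a, a corepressor gene, held 6. Nfatc2, a lymphocyte partner of FOXP proteins, held 8. Gatad2b, Hdac1 and Hdac2 held 0.

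Of 12 endochondral partners and targets 9 held a day 20 peak, against 40.5% of all protein-coding genes. Their median was 1 peak and their median length 13.6 kb. Gli2, the partner of FOXC1, held 19, and Alpl, tissue-nonspecific alkaline phosphatase, held 6. Ihh, Msx2 and Mmp13 held 0. Sox9 had 1 day 20 peak and the only day 0 peak of this list.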

How the data were processed

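Per the labels' protocols, DNA of 4 ATDC5 libraries was captured with Hydroxymethyl Collector. Per the file headers, the authors deposited 1 list per stage, holding peaks at 10-fold enrichment after merging samples. The denominator of that enrichment, and whether the day 19 library entered the day 20 list are both not given in the sources used here. Per the submitters' processing notes, the tools and builds were FastQC, cutadapt, BWA, MACS 1.4.2 and GRCm38 (mm10), with no task stated for any. The deposited values are start and end positions in base pairs with a gene symbol and a transcript. Of 56698 day 20 entries, 3 without a readable end were left out.

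The members, gene lists and comparisons were chosen with earlier results of these data known. Named genes were all members, other forkhead genes with a peak, the 3 genes of each list with most peaks or any with a day 0 peak, and the genes next to Foxp1 in length. Outside this rule, and with values in view, Gatad2a, list genes without a peak and protein-coding neighbours of other members were added. Some list genes that the rule would name are not reported here. Gene positions and promoter sequences came from RefSeq (GRCm38.p6). Width is end minus start plus 1. Overlap meant at least 1 bp. Symbols were matched to genes by transcript, then by name, for 34165 of 34181 peaks with a symbol. There was no replicate spread and no test. Counting and merging were tested on simulated data. Alternatives covered assignment, merging within 1 kb, width, overlap and distance. Python 3.11.15, numpy 2.4.6, pandas 2.3.3, scipy 1.17.1 and matplotlib 3.10.9 were used.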

Additional observations from a re-analysis of the deposited data

How the results depend on the processing

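Of 36 alternatives, 32 left a value within 1.5 times of the reported count or inside its 95% interval. They were not all separate checks, since the pathway lists were counted both together and singly. Both day 0 peaks of Foxp1 lay wholly inside a day 20 peak, so other overlap settings could not change their count. The share of Foxp1 ranged from 50.7 to 56.2% over its 5 alternatives, and its density from 6.7 to 8.87 peaks per 100 kb, against 9.88. The number of members with a day 20 peak near a start was 2 within 1 kb, 1 for the promoter window itself and 4 within 5 kb. Other forkhead genes with a day 20 peak numbered 8 by gene body, 13 by the authors' symbol and 15 with 5 kb added on both sides of the gene, where 50.8% of all protein-coding genes had one. No paired analysis was possible because 1 list of merged samples was deposited per stage, and for the same reason no replicate could be left out. A stricter peak threshold could not be applied without a score per peak, and width was used in its place. With unknown depth, a gene without a peak is not shown to lack 5hmC.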

Other observations

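Some member peaks also lay in other annotated genes. Within Foxo3, the noncoding gene Gm38485 (42247436 to 42274809 on chromosome 10) held 3 of the 9 day 20 peaks. Inside Foxp1, the noncoding Gm52870 held 2 and Gm19665 and Gm38865 held 1 each. None of these peaks carried the symbol of the noncoding gene.

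The 10 members held 0 to 59 day 20 peaks in the gene body, and the next protein-coding genes on either side of them 0 to 29. Next to the densely marked Foxk1, Sdk1, a cell adhesion gene, held 0 day 20 peaks from 141241497 to 142215586 on chromosome 5. Next to Foxp2, Mdfic, which lies 279 kb beyond it, held 9 and Ppp1r3a held 0. Maml3, a Notch coactivator gene next to Foxo1, held 29, and Gmds next to Foxc1 held 16. Armc2 and Afg1l, on either side of Foxo3, held 10 and 7.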
